A study of Mus musculus with 11 samples.

Results

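H3K4me3 was mapped in the ureteric epithelium of the mouse kidney, which branches and later forms the collecting ducts, in cap mesenchyme, which holds the nephron progenitors, and in E14 mouse embryonic stem cells. Here the ureteric peaks that touched no peak of either other list are described. They numbered 2109 of the 23887 ureteric peaks on chromosomes 1 to 19 and X, or 8.83%, and are called ureteric-only peaks below. On these chromosomes the cap mesenchyme list held 32920 peaks and the stem cell list 66694. Of the other ureteric peaks, 2057 were shared with cap mesenchyme alone, 929 with stem cells alone and 18792 with both. The ureteric-only peaks were chosen by presence or absence in the 3 H3K4me3 lists, so their H3K4me3 widths and scores are a description, and position, H3K27me3, RNA and sequence were not used in the choice.

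Ureteric epithelium was sorted as Hoxb7-GFP+ cells at E15.5 from the Hoxb7myr-Venus/+ line, which is of (C57BL/6J x CBA/J)F2 origin kept on C57BL/6J, and whose reporter is driven by the Hoxb7 promoter. Cap mesenchyme was sorted as Cited1-RFP+ cells at E18.5 from the Cited1nuc-TagRFP-T line, which is of (C57BL/6 x DBA)F1 origin on C57BL/6J. The stem cells were the wild-type 129/Ola line E14 at passage 15. Cell type, stage and strain thus differed together between the lists, and their parts in the peak differences cannot be told apart. Chromatin was unfixed, cut with micrococcal nuclease and precipitated for H3K4me3 or H3K27me3. RNA came from ureteric bud (UB) and metanephric mesenchyme (MM) of E11.5 C57BL/6 wild-type embryos, separated manually, so the RNA was earlier than the chromatin and was not sorted. Each group held 1 sample. No value below has a replicate check, no test was run, and intervals are exact binomial (Clopper-Pearson) at 95%, which cover counting error over peaks.

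H3K4me3 is laid down around active or poised transcription starts, most steadily where CpG sites are dense, and at weaker levels over some enhancers. H3K27me3 is left by Polycomb repressive complex and marks silenced genes. Promoters poor in CpG sites tend to carry H3K4me3 in the cell types that use them. The ureteric bud grows under RET signalling and later forms the principal and intercalated cells of the collecting duct.

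RefSeq promoters (mm10, GRCm38.p6) of 6 genes whose start lay under a ureteric-only peak are shown because they span the main groups below, with CG dinucleotides in capitals. Each runs 5′ to 3′ on the gene's strand from 250 bases before the start to 50 after it. The first 3 belong to endothelial genes, namely Erg (chr16:95459299-95459598, minus strand), Myct1 (chr10:5593478-5593777, plus) and Emcn (chr3:137340828-137341127, plus). The next 3 belong to genes with high ureteric bud RNA, namely Aldh1a1 (chr19:20601718-20602017, plus), Wfdc15b (chr2:164221614-164221913, minus) and Plac8 (chr5:100563047-100563346, minus). Kdr (chr5:75978406-75978705, minus), an endothelial gene whose start peak was shared with both other populations, is given for contrast.
Erg: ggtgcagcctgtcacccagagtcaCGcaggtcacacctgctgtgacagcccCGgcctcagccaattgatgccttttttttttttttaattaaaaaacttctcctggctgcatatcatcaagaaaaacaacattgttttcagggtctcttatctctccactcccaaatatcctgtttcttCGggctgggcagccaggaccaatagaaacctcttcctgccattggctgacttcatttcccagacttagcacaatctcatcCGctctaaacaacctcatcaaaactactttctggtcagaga
Myct1: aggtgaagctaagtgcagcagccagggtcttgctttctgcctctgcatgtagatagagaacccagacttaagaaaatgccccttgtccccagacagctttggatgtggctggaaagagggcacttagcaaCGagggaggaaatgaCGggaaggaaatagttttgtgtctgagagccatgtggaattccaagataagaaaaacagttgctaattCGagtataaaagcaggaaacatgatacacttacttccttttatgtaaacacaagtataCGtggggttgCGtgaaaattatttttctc
Emcn: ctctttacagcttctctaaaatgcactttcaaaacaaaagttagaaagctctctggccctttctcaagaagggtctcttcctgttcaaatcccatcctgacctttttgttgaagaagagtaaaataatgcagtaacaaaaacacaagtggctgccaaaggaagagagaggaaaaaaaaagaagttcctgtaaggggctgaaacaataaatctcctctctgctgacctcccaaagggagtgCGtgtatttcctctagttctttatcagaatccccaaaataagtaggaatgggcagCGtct
Aldh1a1: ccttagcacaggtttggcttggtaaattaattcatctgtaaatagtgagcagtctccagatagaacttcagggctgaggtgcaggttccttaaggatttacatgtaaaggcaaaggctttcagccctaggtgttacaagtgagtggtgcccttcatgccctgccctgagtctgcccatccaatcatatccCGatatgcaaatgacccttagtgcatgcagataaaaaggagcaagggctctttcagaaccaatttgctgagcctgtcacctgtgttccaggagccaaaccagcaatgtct
Wfdc15b: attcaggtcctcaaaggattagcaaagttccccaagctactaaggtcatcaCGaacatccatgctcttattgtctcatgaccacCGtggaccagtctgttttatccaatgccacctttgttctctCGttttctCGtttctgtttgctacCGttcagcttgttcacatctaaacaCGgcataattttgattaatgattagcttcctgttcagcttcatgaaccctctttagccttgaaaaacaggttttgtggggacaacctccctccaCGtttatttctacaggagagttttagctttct
Plac8: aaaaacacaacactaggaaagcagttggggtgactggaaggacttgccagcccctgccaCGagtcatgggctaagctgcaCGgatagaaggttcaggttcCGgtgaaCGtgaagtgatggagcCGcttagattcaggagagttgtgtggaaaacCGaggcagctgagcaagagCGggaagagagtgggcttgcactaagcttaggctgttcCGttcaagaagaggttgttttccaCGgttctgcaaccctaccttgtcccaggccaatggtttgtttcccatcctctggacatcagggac
Kdr: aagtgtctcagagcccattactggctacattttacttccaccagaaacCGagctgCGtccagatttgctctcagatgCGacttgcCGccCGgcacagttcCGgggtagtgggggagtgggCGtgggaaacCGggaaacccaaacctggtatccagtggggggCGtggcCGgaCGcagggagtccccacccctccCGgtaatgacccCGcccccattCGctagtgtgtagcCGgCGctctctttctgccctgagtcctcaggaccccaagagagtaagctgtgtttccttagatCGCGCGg
These 300 bases held 4 CpG sites in Erg, 5 in Myct1, 2 in Emcn, 1 in Aldh1a1, 7 in Wfdc15b and 9 in Plac8, against 19 in Kdr.

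CpG sites were sparse at the starts under ureteric-only peaks. RefSeq promoters could be read for 115 such starts in 108 genes, and they held a median of 5 CpG sites (10th to 90th percentile 2 to 9) and 48% G and C. Starts under peaks shared with both populations held a median of 21 over 14524 promoters. More than 10 CpG sites were found in 4.35% of the promoters under ureteric-only peaks, against 84.3% under peaks shared with both and 41.6% of all promoters. Starts under peaks shared with cap mesenchyme alone had a median of 6 and a share of 16.1%, and those shared with stem cells alone had 5 and 6.06%. Low median counts were thus shared by the starts whose peak was missing from at least 1 list. Short motifs were looked for on both strands of the same 300 bases. CAGGAAGT, an ETS-factor motif, was in 9.57% of promoters under ureteric-only peaks, 8.04% under peaks shared with cap mesenchyme alone, 6.06% under peaks shared with stem cells alone and 3.35% of all promoters. It was in 0 of the 5 promoters under ureteric-only peaks that belonged to the endothelial gene list used below. The GATA-factor motif AGATAA was in 15.7% of promoters under ureteric-only peaks, 16.1% under no ureteric peak and 11.2% of all. The TATA-box motif TATAAA was in 20% under ureteric-only peaks, 20% under no ureteric peak and 13.7% of all. The AP-2 motif GCCNNNGGC was in 15.7% under ureteric-only peaks, 26.45% under peaks shared with both, 8.7% under no ureteric peak and 16.7% of all. The HNF1 motif was in 2 of the 115 promoters (1.74%) and in 0.0613% of all, and the Grainyhead motif AACCNGGTT in 0 and in 0.273%. These matches are a description and do not mark bound sites.

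**Figure D1:**
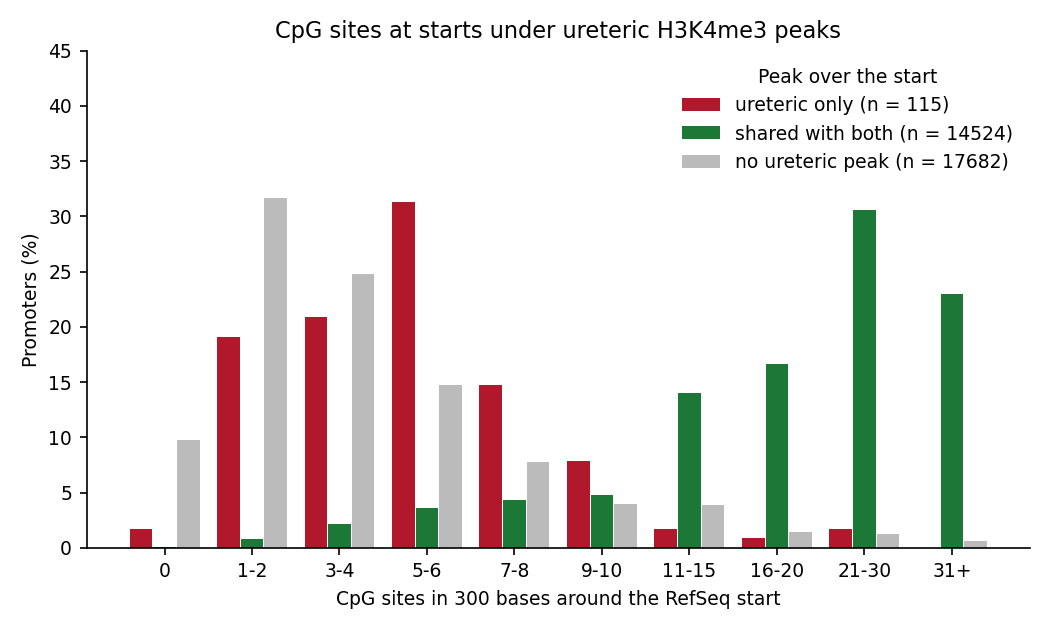
Share of RefSeq promoters (vertical axis, %) by number of CpG sites in the 300 bases around the start (horizontal axis, bins). Promoters under ureteric-only peaks (red, median 5) lie left of those under peaks shared with both other populations (green, median 21), and promoters under no ureteric peak (grey) had a median of 3.

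Most ureteric-only peaks were narrow, low in score and away from gene starts. Their median width was 513 bp (145 to 6754 bp), against 1670 bp for the other ureteric peaks, and their median MACS score, the authors' own value per peak, was 66.05 (50.02 to 2366.94), against 384.5. A score under 100 was found for 80.3% of them and for 19.1% of the others. A gene start lay within 1 kb of 227, or 10.8% (interval 9.47 to 12.2%), against 65.6% of the other ureteric peaks. A further 1206, or 57.2%, lay in a gene body, against 19.2%, and 676, or 32.1%, between genes, against 15.2%. Many were far from any peak of the other lists: 1005, or 47.7%, were over 10 kb from both. At the edge of the rule, 40 lay within 100 bp of a peak of another list. Among the nearest were those at Gm39890 (3 bp), Gm31255 (5 bp), Cav1 (7 bp), Car13 (8 bp) and Tie1 (14 bp), while the peaks at Sfxn2 (9 bp of overlap), Stimate (10 bp), Gramd1b (11 bp) and Ppp2r3a (11 bp) fell just outside the set.

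**Figure D2:**
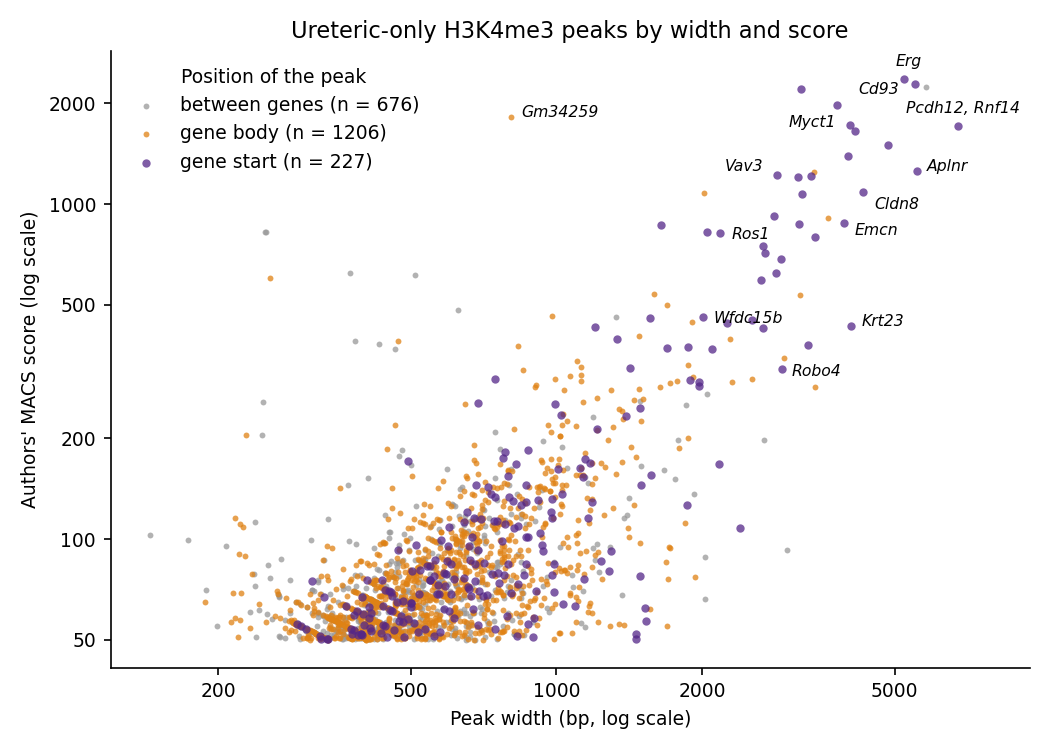
Width (horizontal axis, bp, log scale) and authors' MACS score (vertical axis, log scale) of each ureteric-only peak, coloured by position. Most sit under 1000 bp and near the lowest score kept, 50.02, while the peaks 2000 bp or wider are mostly at gene starts, with Erg highest at 2366.94.

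A small group stood apart in width. Of the 51 peaks at least 2 kb wide, 36 were at a gene start, and their median score was 751.95. The highest score was at Erg, an ETS transcription factor of endothelium, with 2366.94 over 5226 bp (chr16:95454229-95459454) covering an internal start of the gene. The nearest cap mesenchyme peak was 1454 bp from it, and at least 1 start of Erg carried a cap mesenchyme peak. Next was Cd93, an endothelial C-type lectin receptor, with 2289.17 over 5494 bp (chr2:148438447-148443940). The third lay between genes, 17.3 kb from Ces2a, a carboxylesterase gene, with 2238.10 over 5791 bp (chr8:104710927-104716717). The fourth spanned the divergent starts of Aida and Brox, with 2199.65 over 3194 bp. Gm29940, a long noncoding RNA, had 1972.20, and Gm34259 had 1826.30 over 806 bp within its body. The other 4 of the 10 highest were at Rasgrp3, a Ras exchange factor (1720.09), at the shared region of Pcdh12, an endothelial protocadherin, and Rnf14, a ubiquitin ligase (1712.88), at Myct1, an endothelial membrane protein (1652.38), and at Tmem204, a claudin-like membrane protein (1498.73). The widest peak was the one at Pcdh12 and Rnf14, at 6754 bp. Aplnr, the apelin receptor of endothelium, had 5551 bp. Cldn8, a tight-junction claudin of the collecting duct, had 4308 bp, and Krt23, a type I keratin, had 4059 bp. The wide set thus held genes known from endothelium beside genes known from epithelium.

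Peaks over a start reached mainly into the gene. Among 104 ureteric-only peaks that covered a RefSeq start, the median reach was 223.5 bp before it and 648 bp past it, and 89 reached further past than before. Among the 24 of these at least 2 kb wide, the medians were 271.5 bp before and 2560.5 bp past, and 23 reached further past. The reach of the other ureteric peaks was not measured, so this is not shown to be particular to ureteric-only peaks.

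Endothelial genes were the marker group with the most ureteric-only peaks at starts. Of 40 endothelial genes, 8 had one: Aplnr, Cd93, Cdh5 (VE-cadherin, the adhesion molecule of endothelial junctions), Emcn (endomucin, a sialomucin), Erg, Myct1, Robo4 (an endothelial roundabout receptor) and Tie1 (a receptor tyrosine kinase). Over all 34328 genes the share was 0.653%. When a peak counted as ureteric-only with under 50% of it covered, 15 of the 40 had one, as did 327 of all genes. With no peak of another list allowed within 1 kb, 6 had one, and without ureteric-only peaks meeting ureteric H3K27me3, 7 had one. Among the 8, the peaks at Tie1 and Cdh5 lay 14 bp and 416 bp from a stem cell peak. All 8 peaks were at least 2 kb wide, from Tie1 (2847 bp) to Aplnr (5551 bp). The epithelial list had 2 of 40, Cldn8 and Ehf (an ETS factor of epithelia), the ureteric tip list 1 of 24, Tfap2b (AP-2 beta, a transcription factor), and the red cell and megakaryocyte list 1 of 23, Pf4 (a platelet chemokine). The other 13 lists had 0, among them macrophage (0 of 30), lymphoid (0 of 20), collecting duct principal cell (0 of 20), intercalated cell (0 of 12), nephron progenitor (0 of 20) and RET and FGF signalling (0 of 28). For the whole endothelial list, an H3K4me3 peak lay at a start of 36 genes in ureteric epithelium, 23 in cap mesenchyme and 31 in stem cells, where the shares over all genes were 48.1%, 52.1% and 57.6%. In 14 genes it was present in ureteric epithelium and missing in cap mesenchyme, and in 1 gene the reverse. The 14 held all of the 8 genes above except Erg, whose peaks the rule chose for missing cap mesenchyme, so the contrast partly restates the rule. The matching count over all genes is not given here. Apart from those with a ureteric-only peak, the 14 included Pecam1, Plvap, Tek and Eng, which had a stem cell peak at a start.

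**Figure D3:**
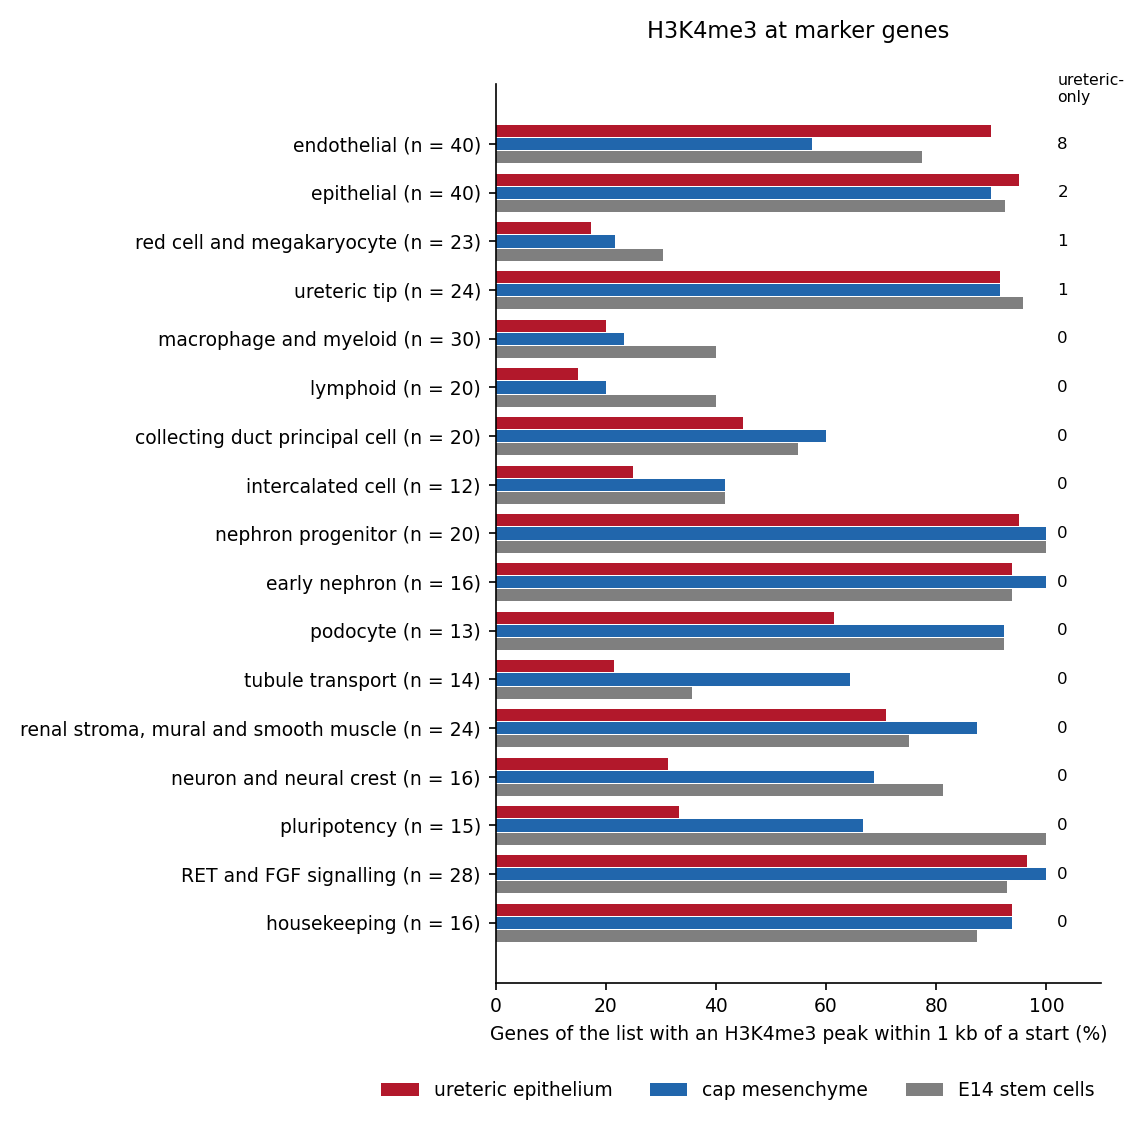
Share of the genes of each marker list (horizontal axis, %) with an H3K4me3 peak within 1 kb of a start in ureteric epithelium (red), cap mesenchyme (blue) and E14 stem cells (grey), with the count of genes holding a ureteric-only peak at a start at the right edge. The endothelial list holds 8 such genes, the epithelial list 2, the ureteric tip and red cell lists 1 each.

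RNA of these 8 genes was lower in UB than in MM, as was that of every other endothelial list gene except Icam2. Cdh5 RNA was at 0.760 FPKM in UB, against 7.97 FPKM in MM, and Emcn at 0.397 FPKM in UB, against 5.08 FPKM in MM. Cd93 was at 0.610 FPKM in UB and 2.98 FPKM in MM, and Aplnr at 0.318 and 2.78. Erg was at 0.255 FPKM in UB and 2.73 FPKM in MM, and Tie1 at 0.263 and 2.43. Robo4 was at 0.127 FPKM in UB and 0.914 FPKM in MM, and Myct1 at 0.0289 and 0.463. Setting both libraries to the same median multiplied UB values by 0.679, so these 8 could only stay lower and the rescaling is no check on them. The 40 endothelial genes summed to 30.1 FPKM in UB, against 136 FPKM in MM, with 3 of them (Etv2, Gja4 and Lyve1) listed at 0 in UB and none in MM, and 7 at 1 FPKM or more in UB, against 26 in MM. The defining markers Pecam1 and Kdr were at 0.597 and 0.868 FPKM in UB, against 4.52 and 8.87 FPKM in MM. In bulk samples, fewer cells of a type and less RNA per cell cannot be told apart. The sort used Hoxb7-GFP, the chromatin was E15.5 and the RNA E11.5, and the part of endothelial cells in the ureteric peak list was not tested. The ureteric tip list summed to 3114 FPKM in UB, against 88.7 FPKM in MM. Its H3K4me3 did not separate the populations, with a peak at a start of 22 of 24 genes in ureteric epithelium, 22 in cap mesenchyme and 23 in stem cells.

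Other wide peaks at starts, named after their values were seen, lay at Stab1 (a scavenger receptor of endothelium and macrophages, 3314 bp), Fabp4 (a fatty acid binding protein, 3218 bp), Zfp366 (3159 bp), Gimap6, Gimap4 and Gimap1 (GTPases known from lymphocytes, 3413, 2908 and 2644 bp), Clec1a (a C-type lectin receptor, 2665 bp) and Blnk (a B-cell adaptor, 2676 bp). Stab1 RNA was at 0.114 FPKM in UB and 1.71 FPKM in MM, Gimap6 at 0.254 and 2.58, and Gimap4 at 0.316 and 1.77. Blnk went the other way, with 4.07 FPKM in UB and 0.322 FPKM in MM. The macrophage list of 30 genes had H3K4me3 at a start of 6 in ureteric epithelium and 7 in cap mesenchyme, with a summed RNA of 5.36 FPKM in UB, against 13.2 FPKM in MM, and 12 genes, among them C1qa, Adgre1 and Tyrobp, listed at 0 in UB. The lymphoid list of 20 had 3 and 4, with 7.39 FPKM in UB, against 1.61 FPKM in MM, and 11 genes, among them Cd3d and Ms4a1, listed at 0 in UB. Their part in these peaks was not tested. Of the 39 genes at the start of a peak at least 2 kb wide, 24 reached 1 FPKM in either library. By the 4-fold rule given below, 7 of these were higher in UB and 2 lower, and 11 of the 24 had a lower value in UB by any amount, as had 23.4% of all genes at that level.

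A second group of starts belonged to genes with high UB RNA, of which Cldn8 is on the epithelial list and Tfap2b on the ureteric tip list. A ureteric-only peak lay at a start of 224 genes (133 protein-coding and 91 long noncoding), of which 195 had an RNA value, 42 were listed at 0 in both libraries and 69 reached 1 FPKM in either. A gene was counted as 4-fold different when log2(FPKM + 1) differed by at least 2 and the higher library had at least 2 FPKM. This scale understates the change of low genes. Of the 69, 18 (26.1%) were higher in UB by this rule, against 4.18% of all 11610 genes at that level and 3.92% of those with another ureteric peak at the start. By the opposite rule 3 (4.35%) were lower, against 1.94% of all genes and 1.70% of those with another ureteric peak. With a pseudocount of 0.1 in place of 1, the counts were 24 higher, against 6.76% of all genes, and 9 lower, against 3.48%. As a share of the 195 genes with an RNA value, 9.23% were higher, against 1.58% of all genes with a value, and 1.54% were lower, against 0.732%. The median difference, UB minus MM, was 0.59 for the 69 genes and 0.46 for all genes. When a peak counted as ureteric-only with under 50% of it covered, 39 of 125 genes were higher and 8 lower, with a median of 1.18. The median was -0.034 among the upper 50% of ureteric peaks by score, 1.17 with the upper 50% of each list and 0.06 with both RNA libraries at the same median. UB values were higher in general, with a median difference of 0.45 over the 9749 genes at 1 FPKM or more in both libraries.

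Aldh1a1, which makes retinoic acid from retinaldehyde, was at 58.2 FPKM in UB and listed at 0 in MM. Cldn8 was at 51.7 FPKM in UB and 0.0314 FPKM in MM, a difference of 5.67 on the log2(FPKM + 1) scale. Wfdc15b, of the whey acidic protein family, was at 47.8 FPKM in UB and listed at 0 in MM. These 3 had the largest differences, but their peaks were unlike, with a width of 493 bp and a score of 57.62 at Aldh1a1, 4308 bp and 1086.49 at Cldn8, and 2005 bp and 460.42 at Wfdc15b. Plac8, a small cysteine-rich protein, was at 25.1 FPKM in UB and 0.154 FPKM in MM. Tfap2b was at 25.1 FPKM in UB and 0.393 FPKM in MM, and Ros1, a receptor tyrosine kinase, at 19.9 and 0.00764. None of the 3 had a cap mesenchyme peak at a start. Vav3, a guanine nucleotide exchange factor, was at 16.5 FPKM in UB and 0.640 FPKM in MM. Rnf128, a ubiquitin ligase, was at 12.3 FPKM in UB and 0.269 FPKM in MM. Krt23 was at 10.96 FPKM in UB and listed at 0 in MM, and Kcnj16, an inwardly rectifying potassium channel subunit, was at 9.72 and 0.00871. At Vav3, Rnf128 and Kcnj16 a start of the gene also carried a cap mesenchyme peak. The other 8 of the 18, listed whatever their role, were Ipcef1, H2-DMb2, Slain1, Trpv6, Rnase4 and the noncoding Rmst, Gm13652 and Gm31614. Of these, Ipcef1, Slain1, Rnase4, Rmst and Gm13652 also had a cap mesenchyme peak at a start. Trpv6, an epithelial calcium channel, was at 4.04 FPKM in UB and 0.0249 FPKM in MM. H2-DMb2, whose reads can be shared with its close copy H2-DMb1, was at 4.64 FPKM in UB and listed at 0 in MM. Of the 18, 9 were among 32 counted genes with no other ureteric peak at a start, and 9 among 37 that had another. Ehf was at 0.896 FPKM in UB and 0.0260 FPKM in MM, below the level used for counting.

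The genes lower in UB by the 4-fold rule were Cdh5 (a difference of -2.35), Emcn (-2.12) and Fam107a, an actin-associated protein (-2.01, with 0.0491 FPKM in UB and 3.23 FPKM in MM). Next were Klhl4, a kelch-like protein, with 0.202 FPKM in UB and 3.14 FPKM in MM, and Erg. Pf4 was at 0.0880 FPKM in UB and 1.15 FPKM in MM. With the endothelial list left out, 18 of 63 genes (28.6%) were higher in UB and 1 (1.59%) was lower.

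**Figure D4:**
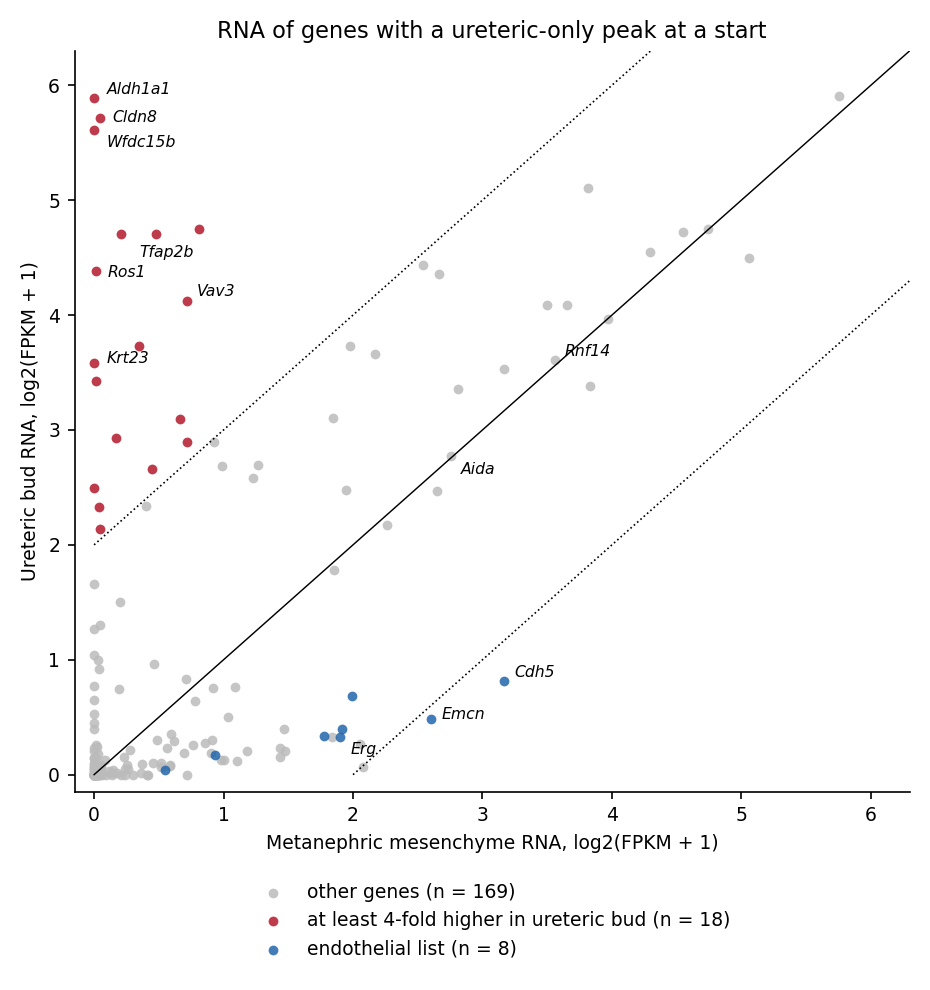
RNA of the 195 genes with a ureteric-only peak at a start and an RNA value, as log2(FPKM + 1) in UB (vertical axis) and MM (horizontal axis); each point is 1 gene, the solid line marks equal values and the dotted lines a difference of 2. The 18 genes higher in UB (red) lie toward the left edge, while the 8 endothelial genes (blue) lie below the line of equal values.

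The rule used the absence of a cap mesenchyme peak, so the genes that had MM RNA without one are given as a description. At 5 FPKM or more in both libraries these were Aida with 5.85 FPKM in UB and 5.75 FPKM in MM, Rnf14 with 11.2 FPKM in UB and 10.8 FPKM in MM, and Rbbp8, a DNA end-resection factor, with 14.6 FPKM in UB and 14.7 FPKM in MM. Their peaks were missing from both other lists although RNA levels in UB and MM were close. At that level, 3 of the 15 genes with a ureteric-only peak at a start lacked a cap mesenchyme peak there. The share over all genes at that level was 63 of 5733 (1.10%), a contrast that the rule itself favours. In all, 149 of the 224 genes had neither a cap mesenchyme nor a stem cell peak at any start, and 61 had another ureteric peak at a start.

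Ureteric-only peaks in gene bodies were found in genes longer than most. Skap1, an adaptor protein, had 9 within 10 kb of the gene, Mecom, a zinc finger transcription factor, had 8 and Apbb2, an amyloid precursor binding protein, had 7. Fam107b, Gm32966, Lrmda, Magi1, Pard3, Ros1 and Pax8 had 5 each. Skap1 RNA was at 8.93 FPKM in UB, against 0.969 FPKM in MM, Mecom at 90.7 against 18.2, and Apbb2 at 18.8 against 1.81. All 3 were higher in UB by the 4-fold rule, while Fam107b (10.6 FPKM in UB, 7.96 FPKM in MM) was not and Gm32966 was listed at 0 in both. A ureteric-only peak away from any gene start lay in the body of 815 protein-coding genes. Some of these genes, such as Ros1 and Vav3, also had one at a start and so are counted above as well. Of the 815, 601 reached 1 FPKM, and 63 (10.5%) were higher in UB, against 4.15% of all protein-coding genes at that level. In the other direction 25 (4.16%) were lower, against 1.84%. Their median length was 128 kb, against 17.3 kb for all protein-coding genes, and the part of length in these shares was not tested. With 2 or more peaks in the body, 23 of 145 genes (15.9%) were higher and 3 (2.07%) lower. Among list genes on both sides, Icam2 was the only endothelial gene not lower in UB, with or without a ureteric-only peak. The counts that follow thus do not set genes with such a peak apart from the rest of the list. In all, 18 of the 40 endothelial genes had a ureteric-only peak in the body, and 17 of these had a lower value in UB. For the 10 of them with none at a start the count was 9, among them Kdr, a VEGF receptor, with 0.868 FPKM in UB and 8.87 FPKM in MM, Cd34, a sialomucin, with 3.68 and 18.7, and Flt1, a VEGF receptor, with 0.521 and 3.50. Calb1, the calcium-binding calbindin of the ureteric bud, was at 1685 FPKM in UB and 0.478 FPKM in MM, and Gata3, a transcription factor of the ureteric bud, at 95.7 and 1.51. Met, the HGF receptor, was at 12.8 FPKM in UB and 3.66 FPKM in MM, and Pax8, a renal transcription factor, at 11.6 and 4.41. Meis2, a homeobox gene chosen after its values were seen, was also lower in UB, with 4 ureteric-only peaks in its body and 2.30 FPKM in UB, against 166 FPKM in MM.

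The share of ureteric-only peaks that met H3K27me3 was above that of the other ureteric peaks for the ureteric H3K27me3 list and below it for the stem cell list. The ureteric H3K27me3 list touched 318 of them, or 15.1% (13.6 to 16.7%), against 11.9% of the other ureteric peaks and 12.2% of all ureteric peaks. The cap mesenchyme list touched 192, or 9.10%, where the share of all ureteric peaks was 8.95%. The stem cell list touched 57, or 2.70% (2.05 to 3.49%), against 14.2% of the other ureteric peaks, where the share of all ureteric peaks was 13.2%. Peaks missing from 1 of the other lists were also low on this last measure, with 2.97% of those shared with cap mesenchyme alone and 2.91% of those shared with stem cells alone. Of the 318 ureteric-only peaks with ureteric H3K27me3, 45 were among the 51 ureteric-only peaks in the first 8 Mb of chromosome 14. A further 16 were all of the ureteric-only peaks in a short stretch of chromosome 8, and both regions are described below. The share without these regions was not measured, so their part in the difference between 15.1% and 11.9% was not tested. That difference is not shown to hold outside them. By position, ureteric H3K27me3 lay on 7.49% of the ureteric-only peaks at starts, 10.6% in gene bodies and 25.6% between genes. By width the share was 26.4% under 300 bp, 6.89% from 600 to 1000 bp and 9.80% from 2 kb up. The H3K27me3 lists differ in extent, covering 52.6 Mb in ureteric epithelium, 27.8 Mb in cap mesenchyme and 13.3 Mb in stem cells, so shares of different lists are not on 1 scale.

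**Figure D5:**
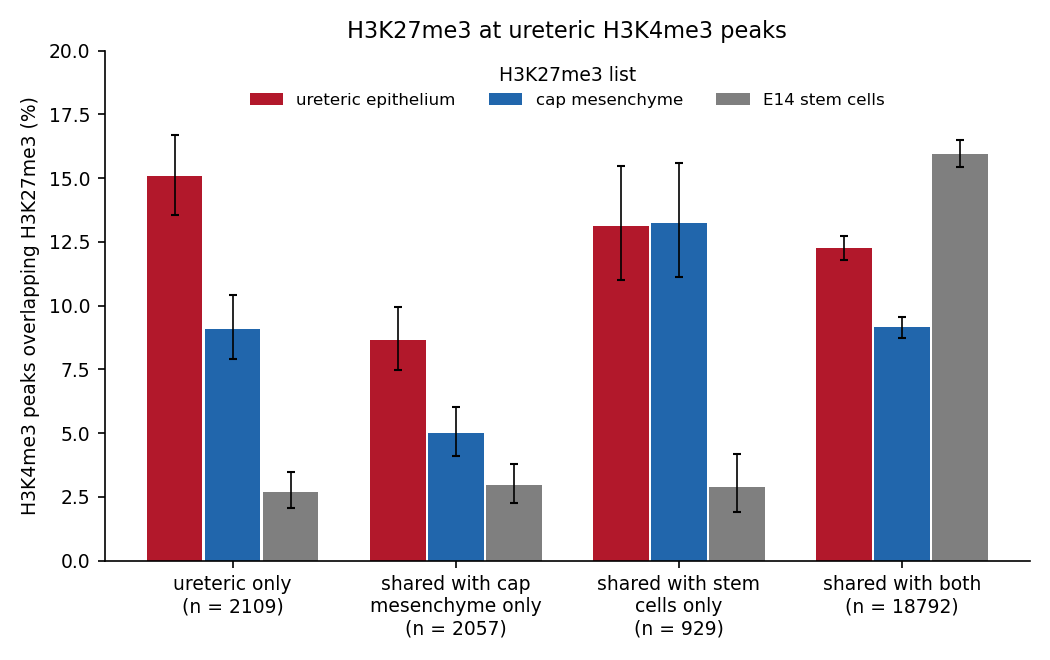
Share of ureteric H3K4me3 peaks (vertical axis, %) that overlap an H3K27me3 peak of ureteric epithelium (red), cap mesenchyme (blue) or E14 stem cells (grey), by how the H3K4me3 peak is shared; bars on the columns are exact binomial intervals at 95%. Ureteric-only peaks had 15.1%, 9.10% and 2.70%, and peaks shared with both had the highest stem cell share.

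At starts, the 5 highest-scoring ureteric-only peaks that also met ureteric H3K27me3 were at Cd93 (333 bp of overlap), Gimap6 (201 bp), Gm31626 (625 bp), Gm41530 (689 bp) and Tfap2b (389 bp). The first 2 were wide peaks with a small overlap. At Tfap2b the 660 bp peak (chr1:19207364-19208023) had a score of 95.63. It met H3K27me3 in cap mesenchyme over 654 bp and in stem cells over 660 bp as well, while Tfap2b RNA was high in UB. This peak ended before the gene, which begins at 19208908. Another ureteric peak, not ureteric-only, and a stem cell peak also lay within 1 kb of a start of Tfap2b. Both marks on 1 peak in a sorted population need not lie in the same cell.

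Ureteric-only peaks that were short and yet high in score met H3K27me3, a pattern picked out after the values were seen. The 13 under 600 bp with a score of at least 200 all met ureteric H3K27me3, 11 also met that of cap mesenchyme and 0 that of stem cells, and none was at a gene start. Of 17 other ureteric peaks of that size and score, 2 met ureteric H3K27me3. The Gm34259 peak (chr17:4625865-4626670) was of the same kind though wider, with 492 bp of ureteric and 410 bp of cap mesenchyme H3K27me3. Position was uneven too, in 2 regions also picked out after the values were seen. In the first 8 Mb of chromosome 14, 51 of 98 ureteric peaks (52.0%) were ureteric-only, against 118 of 899 (13.1%) on the rest of that chromosome. Of these 51, 45 met ureteric H3K27me3, 0 lay at a gene start and 30 lay in bodies of predicted genes whose names begin with Gm. Between 20 and 22 Mb of chromosome 8, 16 of 27 were ureteric-only and all 16 met ureteric H3K27me3.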

How the data were processed

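Per the submitters' processing notes, the authors used Bowtie2 and MACS for the peak lists, TopHat, Cufflinks and Cuffdiff for RNA, and the mm10 genome. Versions, settings and the libraries behind each list are not given in the sources used here, so read depth is unknown, and the 3 input libraries were not analysed here. Each deposited peak carries the authors' score, whose meaning is not stated. RNA values are the authors' deposited FPKM per transcript, scaled by length and mapped fragments, which were summed here per gene, with 89.7% of 138486 transcripts paired to RefSeq genes. The RNA difference was log2 of the deposited FPKM with a pseudocount of 1, UB minus MM. Peaks were counted as shared with at least 1 bp of overlap (bedtools 2.31.1 gave the same 2109). A gene start was any RefSeq start (GRCm38.p6), with 1 kb on both sides, over 34328 genes. Strand was taken from the RefSeq promoters or, where these lacked a gene, from the order of RNA loci, and the 2 sources gave the same strand for 24129 of 24129 genes. Scripts ran in Python 3.11.15 with pandas 2.3.3 and were tested on simulated data.

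The peak set and the 17 gene lists were chosen with earlier results of these data known. Genes were named by rule: the 10 highest and 10 widest peaks, list genes with a peak at a start, the 10 highest and 5 lowest RNA differences among protein-coding genes, the 5 genes with most peaks within 10 kb, and the 5 highest start peaks with ureteric H3K27me3. Other settings of overlap, score, window, filter, pseudocount and scaling were tried.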

Additional observations from a re-analysis of the deposited data

How the results depend on the processing

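No paired analysis was possible because each group held 1 sample. Of 46 alternative values, 29 kept their direction and, for the peak count and the RNA and endothelial gene counts, stayed within 1.5 times. The number of genes higher in UB in these ranged from 12 (of 49 counted) to 27 (of 134 counted), and the median RNA difference from 0.06 to 1.18. With a peak counted as ureteric-only when under 50% of it was covered, the share at starts was 13.8%. Under that setting 39 of 125 genes were higher and 8 lower in UB by the 4-fold rule, where the main rule gave 18 of 69 and 3. Such a peak lay at a start of 15 endothelial genes and of 327 genes in all, where the main rule gave 8 and 224. In the upper 50% of the ureteric list by score, 69 peaks remained, with 59.4% at starts and 20.3% with ureteric H3K27me3. In this set 7 of 26 genes were higher and the median RNA difference was -0.034, the reverse of the reported sign, while the endothelial count was 8. In the upper 50% of each list, there were 150 ureteric-only peaks, with 54% at starts. A window of 2.5 kb gave 16.9% at starts. Ureteric H3K27me3 lay on 11.9% when it had to cover at least 50% of the peak, against 6.00% of the other ureteric peaks, and on 11.52% with the upper 50% of that list. Without a filter on low RNA values the median was 0. With both RNA libraries at the same median, 13 of 66 genes were higher and the median was 0.06. Settings that left out peaks by width or H3K27me3 were added after the data were seen. With peaks at least 1 kb wide, 31.2% were at starts, 9.52% had ureteric H3K27me3 and 10 of 36 genes were higher. Without peaks meeting ureteric H3K27me3, 1791 remained. The cause of these shifts was not tested. Precision is limited by 1 library a group, unknown depth and scores whose likeness between lists is unknown.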

Other observations

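Hairpins of 6 of 1005 microRNAs lay within 1 kb of a ureteric-only peak: Mir30a, Mir190a, Mir196a-1, Mir6391, Mir503 and Mir322. The peaks were weak, with scores between 50.79 (beside Mir30a) and 78.98 (beside Mir503 and Mir322, which share it). Mir196a-1 lay beside a pair of peaks of 1099 and 1168 bp. By chromosome, ureteric-only peaks made up 5.79% of the ureteric peaks of chromosome 4 and 11.2% of those of chromosome 3, with chromosome 14 apart at 17.0%. Another ureteric-only peak lay within 10 kb of 334 of them, or 15.8%.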
